A study of Mus musculus with 244 samples.

Results

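The 44 genes described here encode actin and the proteins that assemble, cut, bundle, anchor and pull on actin filaments, with the intermediate filament protein vimentin added. They were chosen by symbol from a list of actin cytoskeleton and motility genes, and all 44 were found among the 24475 genes of the deposited table. The choice was made with earlier results of these data known. The study asked how single macrophages of the atherosclerotic aortic arch differ between established disease and regression. Apoe-/- mice, which lack apolipoprotein E and develop plaques, ate a high-fat diet for 16 weeks. Cells from arches at that point form the baseline group. For regression, arches from such donors were grafted into wild-type (WT) recipients on chow and taken 3 days after the transplantation, so every cell came from an arch formed in an Apoe-/- mouse on the diet. The sources used here do not say whether a regression cell came from the donor or the recipient, nor give the age, sex, strain and number of the animals. Cells of both groups were sorted for the leukocyte protein CD45 and the myeloid proteins CD11b and F4/80. Grafting, diet and recipient genotype changed together, so their parts in any difference between the groups cannot be told apart.

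Actin monomers join into filaments that push the cell edge forward, and profilin and the thymosins hold and feed the monomer pool. The Arp2/3 complex starts branches from existing filaments, GTPases such as Rac and Cdc42 steer where this happens, and cofilin, gelsolin and coronin take filaments apart or prepare them for reuse. Crosslinkers and myosin turn the filaments into bundles and contracting networks. Macrophages use this machinery to crawl, to spread on a vessel wall and to engulf particles.

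Values are RPKM, reads per kilobase of transcript per 1000000 mapped reads, which allows levels of different genes to be compared per length. Levels were taken as log2(RPKM + 1), and a gene is called listed in a cell at an RPKM of 1 or more. The module score of a cell is the mean level of the 44 genes. A difference is the regression mean minus the baseline mean, and standard deviations (SD) are over cells. Cells are not replicates and no animal is named, so each group counts as 1 sample: no test between the groups was possible, and no p-value is given. Genes are instead named by a rule of size, a difference of 1 or more, and each count is set beside the same count over the 3946 genes that were listed in 25% or more of the cells of either group.

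The table held 128 baseline and 116 regression libraries. Of these, 3 pairs of baseline libraries were near copies (correlations of 0.992 to 0.997, where no other pair exceeded 0.654), and each pair was counted as 1 cell. After 3 regression cells under 1000 genes were dropped, there were 125 baseline cells and 113 from regression. The median number of genes detected was 2491 in baseline and 2360 in regression. Depth, estimated for 130 libraries, had a median of 1.1 M reads (M, 1000000) in baseline and 0.95 M in regression. The numbers in the sample titles form 5 stretches of 1 group each. Regression holds numbers 1 to 20, 93 to 111 and 168 to 244, and baseline 21 to 92 and 112 to 167. The sources used here do not say whether a stretch is a capture run or an animal. The regression cells 93 to 111 had the fewest genes detected, with a median of 1892.5, and the other stretches had medians from 2399 to 2669. At least 3 of 8 macrophage markers were listed in 124 of 125 baseline cells and 113 of 113 regression cells. No cell listed 3 smooth muscle or endothelial markers, which allows up to 2.91% of baseline and 3.21% of regression cells by the exact 95% interval. Intervals here cover counting error only. Apoe had a mean level of 0.30 ± 1.11 (SD) in the 125 baseline cells and 11.86 ± 2.81 in the 113 regression cells, the direction the genotypes in the labels give. Of the regression cells, 7 had Apoe in the baseline range. Donor arches were Apoe-/- and recipients WT, but the origin of single cells was not tested.

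The module as a whole was slightly lower in regression, by less than the spread between cells. Its score ran from 3.97 through a median of 6.17 to 7.84 in the baseline cells and from 3.68 through 5.85 to 7.68 in the regression cells. The ranges of both groups overlapped almost completely. The mean was 6.12 ± 0.84 in baseline and 5.82 ± 0.83 in regression, a difference of -0.30. Both baseline stretches had a mean score of 6.12, whereas the regression stretches had 6.16 (1 to 20), 5.60 (93 to 111) and 5.78 (168 to 244). Regression cells 1 to 20 therefore lay as high as baseline, and the lower mean came from the other regression stretches. Of the 6 pairings of a regression with a baseline stretch, 4 were lower in regression, with differences from -0.53 to 0.04.

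**Figure D1:**
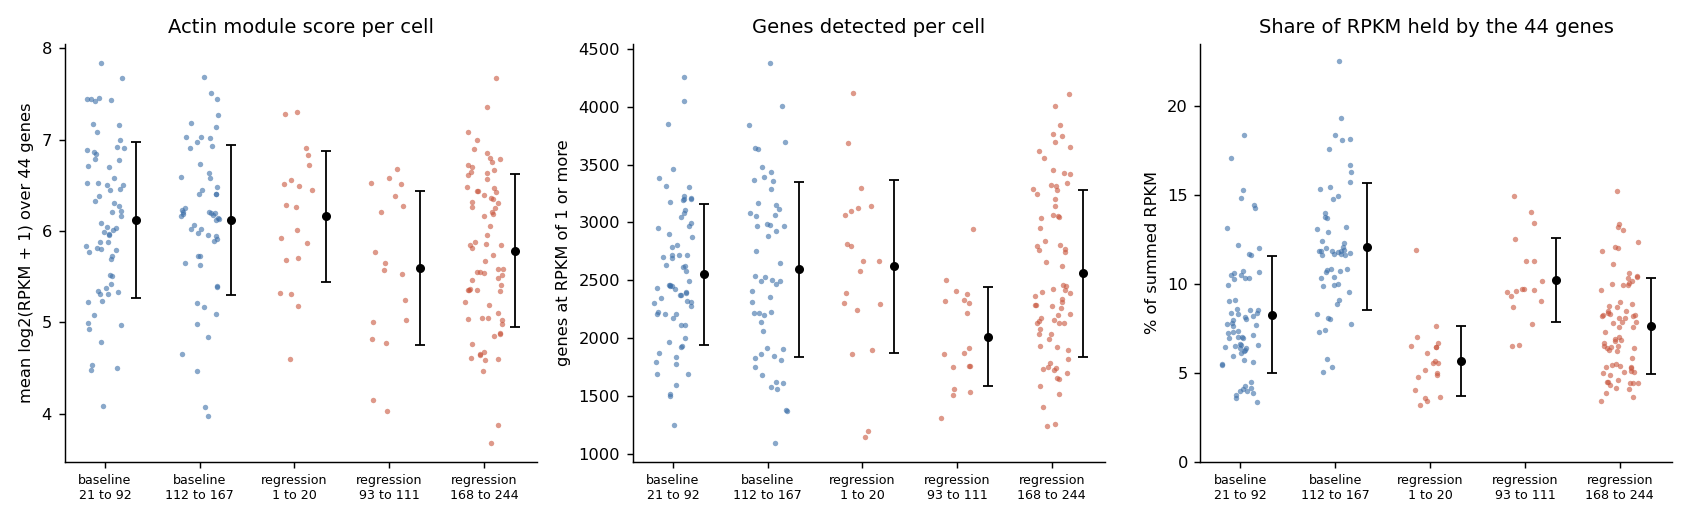
For each cell, by group and stretch of sample numbers, the module score (mean log2(RPKM + 1) of the 44 genes, left), genes detected at RPKM of 1 or more (middle) and the percent of summed RPKM held by the 44 genes (right); points are cells, black points and bars the mean ± SD over cells. The baseline stretches share a mean score of 6.12, the regression stretches have 6.16, 5.60 and 5.78, and regression cells 93 to 111 have the fewest genes detected.

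The score moved with the number of genes detected in a cell, as a mean over genes with many zeros does. Across the cells of a stretch, the correlation of the score with genes detected (Pearson's r, a description, since both come from the same library) was between 0.586 and 0.784. Among cells with at least 1000 and under 2000 genes detected, the score was lower by 0.27 in regression (28 baseline and 32 regression cells). Among those from 2000 to under 3000 it was lower by 0.26 (63 and 50 cells), and from 3000 on by 0.24 (34 and 31 cells). The difference was thus of the same size in cells of like gene number. Measured against the mean level of the other genes in the same cell, the score stood 3.41 ± 0.61 above it in baseline and 3.15 ± 0.54 in regression. The median cell listed 36 of the 44 genes in either group.

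**Figure D2:**
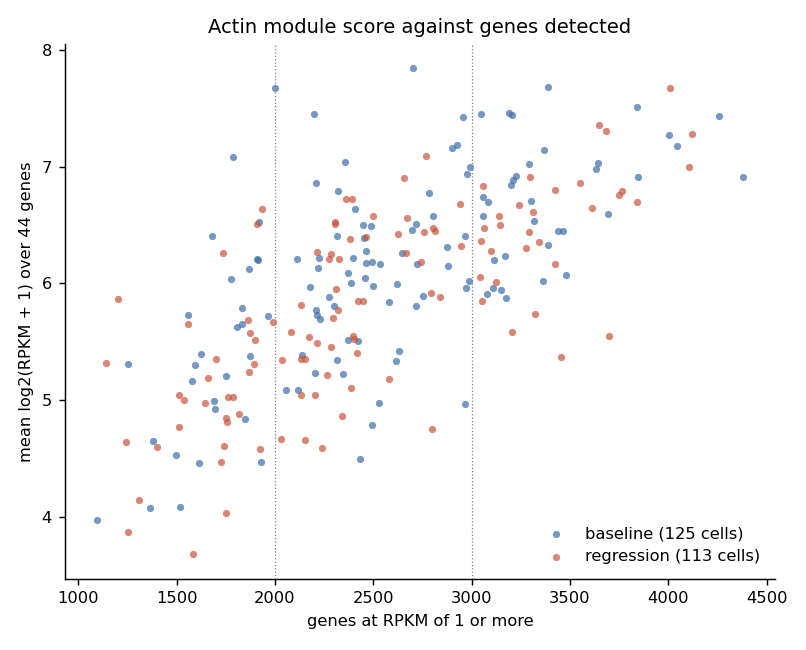
Module score (mean log2(RPKM + 1) of the 44 genes) against genes detected per cell (genes at RPKM of 1 or more), each point a cell, coloured by group. The score climbs with genes detected in both groups, and the groups overlap along the whole range; dotted lines part bands of gene number at 2000 and 3000, within which regression was lower by 0.24 to 0.27.

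By share of all RPKM in a cell, the module was large. The 44 genes held a median of 9.92% of a baseline cell's summed RPKM and 7.26% of a regression cell's. By stretch the medians were 7.65% and 11.8% in baseline (21 to 92 and 112 to 167) and 5.53%, 9.67% and 7.58% in regression (1 to 20, 93 to 111 and 168 to 244). The stretches of both groups overlapped. By group medians, most of the share was Actb, the gene of cytoplasmic beta-actin, at 6.10% of summed RPKM in baseline and 4.17% in regression. The Actb medians by stretch were 4.33% and 8.65% in baseline and 1.96%, 6.92% and 4.30% in regression. They overlapped, and in regression cells 1 to 20 Actb was not most of the share. Cytosolic ribosomal protein genes held 8.98% in baseline and 13.0% in regression, and mitochondrial genes 7.09% and 8.13%. The part of these shares in the score was not tested, but after rescaling each cell without both gene classes the score was lower by 0.36.

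Of the 44 genes, 43 passed the 25% filter; Vcl, the gene of vinculin, was listed in 26 of 125 and 24 of 113 cells and did not. Of the 43, 8 were lower by 1 or more in regression (18.6%), against 7.37% of all genes that passed. These were Lsp1, Cnn2, Coro1a, Actn1, Iqgap1, Rac2, Lcp1 and Gsn. The 2 that were higher by 1 or more (4.65%, against 5.60% of all genes) were Tmsb10 and Vim. The median difference was -0.26 for the 43 genes and -0.05 for all genes. Since genes with higher levels can show larger differences, the count was also made over genes listed in 50% or more of the cells of either group. There, 7 of 37 members were lower by 1 or more (18.9%, against 13.0% of 1650 genes) and 2 were higher (5.41%, against 10.4%). The share of lower genes was above the background in both counts, and by less in the second. Since the members were chosen with earlier results of these data known, these shares describe the list and are no independent test of it. By the log2 ratio of mean RPKM, which weighs the highest cells most, 3 members were at -1 or less (6.98%, against 10.3% of all genes) and 3 at 1 or more (6.98%, against 11.2%). The lower ones were Coro1a, Actn1 and Cnn2 and the higher ones Was, Vasp and Ezr, so by this measure the excess of lower members was absent. With a pseudocount of 10 in place of 1, Tmsb10 (0.98), Rac2 (-0.87), Gsn (-0.67) and Actn1 (-0.59) were under 1 in size.

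Direction without a size rule leaned the same way. The mean was lower in regression for 28 members (65.1%, against 53.3% of all genes) and higher for 15 (34.9%, against 46.7%). In 11 members (25.6%, against 18.3% of all genes) each of the 3 regression stretches had a lower mean than each of the baseline stretches. They were Lsp1, Cnn2, Coro1a, Actn1, Iqgap1, Gsn, Msn, Cdc42, Wdr1, Myh9 and Cfl1. For Myh9 the closest pairing was only -0.0002. In 3 members (6.98%, against 12.4%) each regression stretch was higher, namely Tmsb4x, Tmsb10 and Vim. Within a group, stretches differed too. Between the baseline stretches, 5 of the 43 members differed by 1 or more in either direction (11.6%, against 7.32% of all genes): Rac1, Capg, Arpc4, Cnn2 and Coro1a. Between regression cells 1 to 20 and 93 to 111 it was 22 members (51.2%, against 37.4%), and between 1 to 20 and 168 to 244 it was 18 (41.9%, against 22.5%). Between 93 to 111 and 168 to 244 it was 10 (23.3%, against 23.0%).

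**Figure D3:**
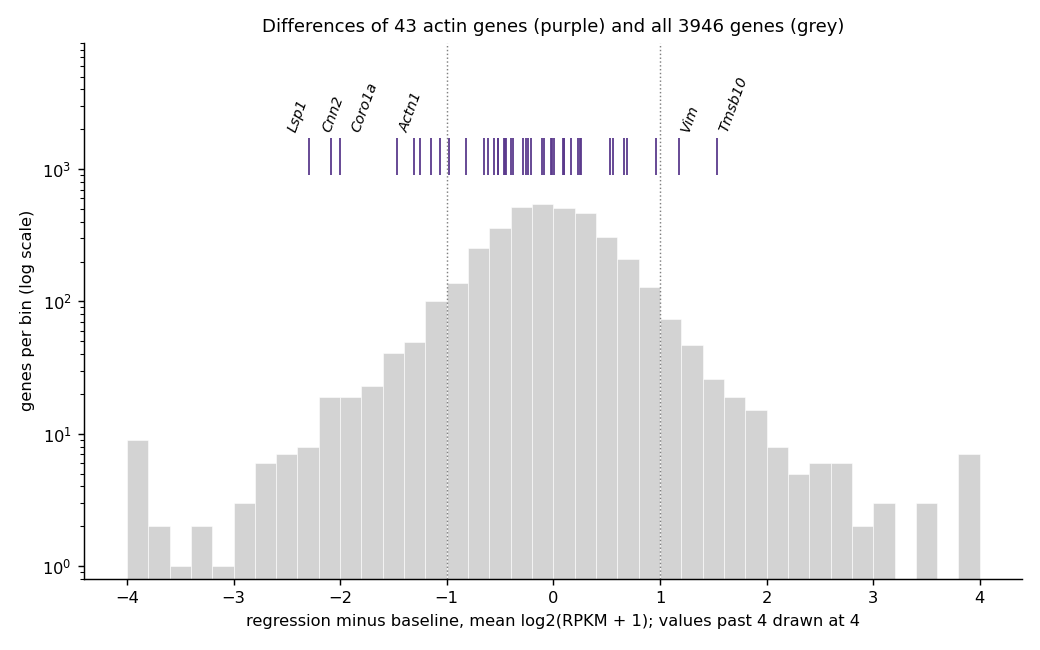
Difference in mean log2(RPKM + 1), regression minus baseline, for the 43 members that passed the 25% filter (purple marks) over a histogram of all 3946 genes (grey, log scale of genes per bin); dotted lines mark differences of 1 in size. The marks reach -2.29 at the low end (Lsp1) and 1.54 at the high end (Tmsb10).

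By role, the mean was lower in regression for 5 of 5 bundling and crosslinking genes, 5 of 6 myosin, tropomyosin and calponin genes and 4 of 5 severing, capping and turnover genes. It was lower for 3 of 6 actin and monomer-binding genes and 4 of 7 Arp2/3 genes, where 53.3% of all genes were lower. Among the 5 bundling and crosslinking genes, Actn4 had a difference of only -0.02 and was higher in 5 of 6 stretch pairings. The mean level of the 5 bundling and crosslinking genes was lower by 1.07, that of the 6 myosin, tropomyosin and calponin genes by 0.72 and that of the 5 severing, capping and turnover genes by 0.66. Each of these was lower in 6 of 6 stretch pairings. The closest pairing was -0.56 for bundling and crosslinking and -0.53 for severing, capping and turnover, but only -0.03 for myosin, tropomyosin and calponin. The mean of the 6 actin and monomer-binding genes was higher by 0.21, in 6 of 6 pairings, with Tmsb10 at 1.54 and the other genes between -0.44 and 0.26. It was higher by 0.10 with cells rescaled to a sum of 1000000 and by 0.05 by the log2 ratio of mean RPKM. The 7 Arp2/3 genes differed by -0.09, lower in 5 of 6 pairings, which ran from -0.50 to 0.13. The membrane linkers differed by -0.26, lower in 4 of 6 pairings, but were higher by 0.22 when groups were compared by the log2 ratio of mean RPKM. Adhesion genes were higher by 0.32, in 4 of 6 pairings, with regression cells 1 to 20 at 3.52 and the other stretches from 2.02 to 2.50.

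**Figure D4:**
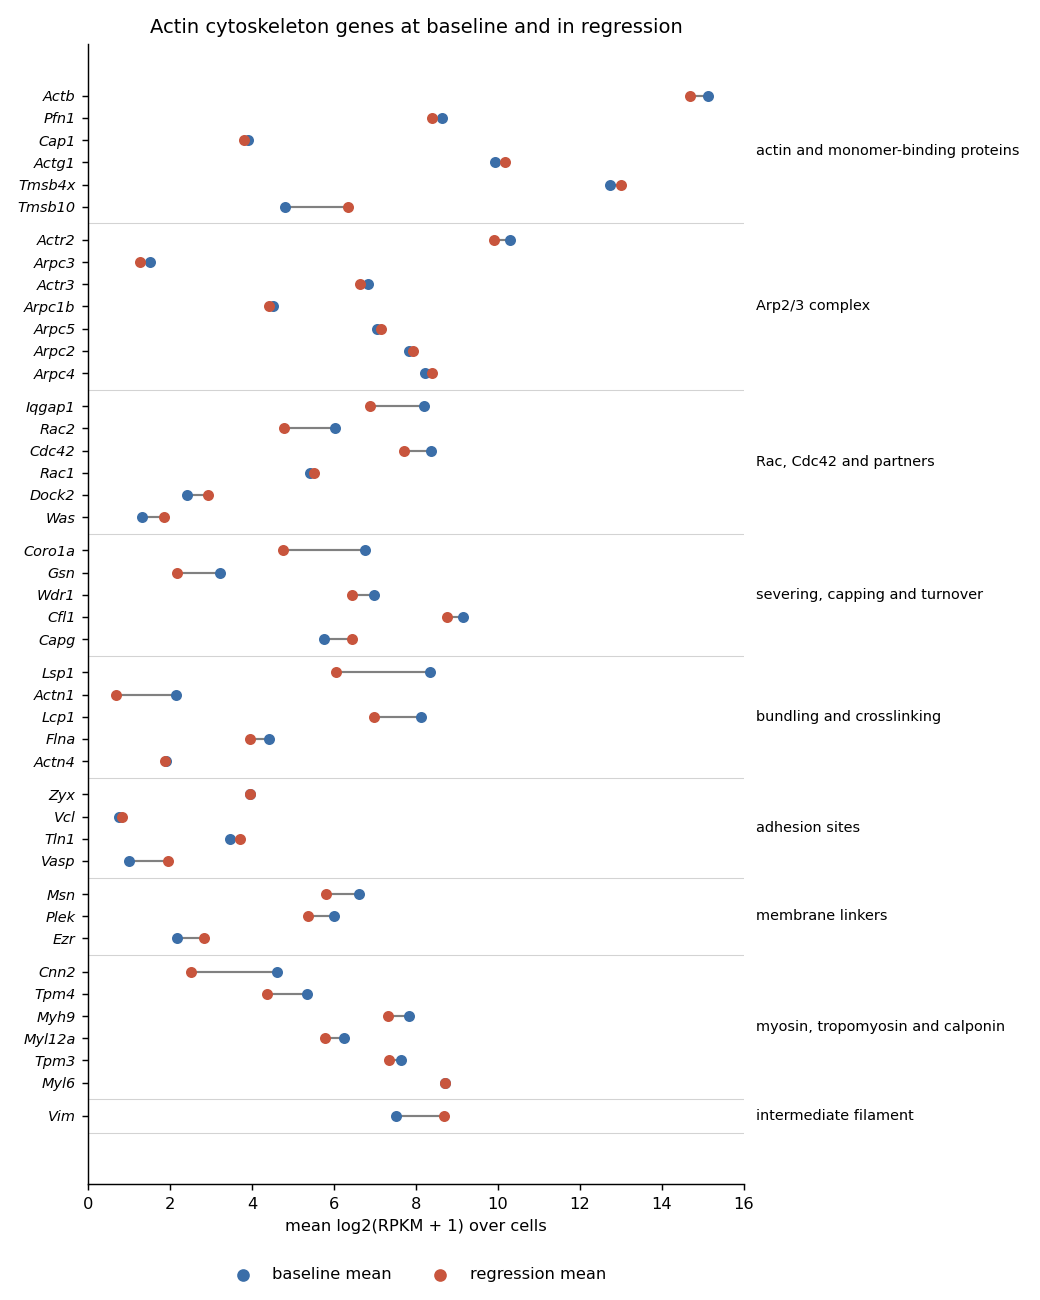
Mean log2(RPKM + 1) over the 125 baseline cells (blue) and the 113 regression cells (red) for 43 of the 44 genes, grouped by role; a line joins the means of 1 gene. The red point lies to the left for each of the 5 bundling and crosslinking genes, with differences of -2.29 for Lsp1 and -0.02 for Actn4, and to the right for Tmsb10 (by 1.54) and Vim (by 1.18).

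Among actin and its monomer-binding proteins, the thymosin genes were higher and Actb was lower. Actb had the highest level of the 44 and was listed in every cell. It ran from 13.12 through a median of 15.20 to 16.69 in baseline and from 12.46 through 14.86 to 16.19 in regression. The groups overlapped over most of their ranges. Its means were 15.12 ± 0.78 and 14.68 ± 0.85, a difference of -0.44. The stretch means did not separate the groups, with 13.80, 15.51 and 14.72 in regression (1 to 20, 93 to 111, 168 to 244) and 14.73 and 15.61 in baseline (21 to 92, 112 to 167). Without baseline cells 112 to 167 the difference was -0.05, without 21 to 92 it was -0.93, and without regression cells 1 to 20 it was -0.25.

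Actg1 encodes gamma-actin, the other cytoplasmic actin. It ran from 2.02 through 10.48 to 12.54 in baseline and from 5.58 through 10.51 to 13.27 in regression, with means of 9.92 ± 2.15 and 10.18 ± 1.54. The medians were nearly equal, and the difference of 0.25 was 0.06 without regression cells 1 to 20, whose mean of 11.10 was the highest, and 0.96 without cells 168 to 244. In the GENCODE vM21 annotation, 37.4% of the 50-base words in its transcripts also occur in other genes, so reads could be split between copies and its level is uncertain. Of the summed RPKM of both actins, Actg1 held a median of 3.63% in baseline and 4.65% in regression, and 15.5% in regression cells 1 to 20. Actb exceeded Actg1 in every cell of both groups.

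Tmsb4x and Tmsb10 encode thymosin beta 4 and beta 10, small proteins that hold actin monomers. Tmsb4x was listed in all cells, at 10.10, 12.86 and 14.13 (lowest, median and highest) in baseline and at 9.70, 12.97 and 14.91 in regression. Its means were 12.73 ± 0.68 and 12.99 ± 0.81. Its stretch means were 13.17, 12.80 and 12.99 in regression and 12.77 and 12.68 in baseline, so they did not overlap, though the smallest pairing was 0.03. Tmsb10 (chromosome 6, 72957347 to 72958748, mm10) was higher by a wider margin, with means of 4.79 ± 3.16 in baseline and 6.33 ± 2.62 in regression, a difference of 1.54. It was listed in 79.2% of baseline cells (exact 95% interval 71.0 to 85.9) and in 93.8% of regression cells (87.7 to 97.5). Its median was 5.44 in baseline and 6.65 in regression, and both groups held cells at 0 and cells above 10. By stretch, the means were 8.47, 5.69 and 5.91 in regression and 4.94 and 4.62 in baseline. Regression cells 1 to 20 stood highest, and without regression cells 168 to 244 the difference was 2.36. The pairings with cells 1 to 20 were 3.53 and 3.85, and those with the other regression stretches ran from 0.76 to 1.29. As a log2 ratio of mean RPKM the difference was 0.67, and 27.0% of the words of Tmsb10 are shared with other genes. Tmsb10 held a median of 0.560% of the RPKM of both thymosins in baseline and 1.24% in regression.

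The remaining genes of this group had small differences. Profilin 1 (Pfn1), which delivers monomers to growing filaments, had a difference of -0.24, with pairings from -1.12 to 0.61. Cap1, an adenylyl cyclase-associated protein that helps recycle monomers, had one of -0.08.

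The Arp2/3 genes Actr2, Actr3, Arpc1b, Arpc2, Arpc3, Arpc4 and Arpc5 had differences from -0.38 to 0.16, none of 1 or more and none with stretch means apart. Actr2, the gene of the ARP2 subunit, had the largest. It was at 0.00, 10.56 and 12.14 (lowest, median, highest) in baseline and 0.64, 10.42 and 12.28 in regression. Its means were 10.28 ± 1.69 and 9.90 ± 1.84, with stretch means of 8.69, 10.52 and 10.07 in regression and 9.99 and 10.65 in baseline. The low value belonged to regression cells 1 to 20, and without them the difference was -0.12. Arpc3 had the lowest level of the complex, with 29.6% of the baseline and 27.4% of the regression cells listing it, whereas the other 6 genes were listed in 81.6% or more of the cells of either group. Subunits of 1 complex thus had mean levels over all cells from 1.39 (Arpc3) to 10.10 (Actr2). Actr3 and Arpc1b share 26.3% and 24.3% of their words with other genes.

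Among Rac, Cdc42 and their partners, the largest difference was that of Iqgap1 (chromosome 7, 80711583 to 80825974), a scaffold that binds Rac1, Cdc42 and actin filaments. It was at 1.33, 8.44 and 10.31 (lowest, median, highest) in baseline and 0.00, 7.57 and 9.63 in regression. The means were 8.19 ± 1.46 and 6.88 ± 1.95, a difference of -1.31. Nearly all cells of both groups listed it (125 of 125 and 111 of 113), so the difference lay in its level. Stretch means were 6.83, 6.62 and 6.96 in regression and 7.95 and 8.48 in baseline, a gap of at least 0.99 in each pairing. By bands of genes detected, the difference was -2.05 in cells with 1000 to under 2000 genes, -1.24 with 2000 to under 3000 and -0.60 from 3000 on. The mean RPKM was 395 in baseline and 200.4 in regression.

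Rac2 is the Rac of blood cells, used in migration and in the oxidative burst. It was at 0.00, 6.82 and 10.46 in baseline and at 0.00, 4.93 and 10.79 in regression. Its means were 6.02 ± 3.37 and 4.77 ± 3.48, a difference of -1.25. The stretch means overlapped, with 6.16, 5.59 and 4.20 in regression and 6.37 and 5.59 in baseline, and 4 of 6 pairings were lower. The difference rested on regression cells 168 to 244: without them it was -0.13, and without baseline cells 21 to 92 it was -0.82. The mean of stretch means gave -0.66 and the log2 ratio of mean RPKM -0.63. By bands of genes detected, the difference of Rac2 was 0.61 (1000 to under 2000), -2.13 (2000 to under 3000) and -1.18 (3000 on). Rac1, the Rac of most cell types, had a difference of 0.09. Of the RPKM of both Rac genes, Rac2 held a median of 64.3% in the 121 baseline cells with either gene and 38.6% in the 111 such regression cells. By stretch this was 63.8%, 40.5% and 15.2% in regression and 80.4% and 53.9% in baseline. Of the words of Rac1, 50.3% are shared with transcripts annotated to Daglb, so its part of this ratio is uncertain.

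Was, the gene of the Wiskott-Aldrich syndrome protein that activates Arp2/3 below Cdc42, was listed by 33.6% of the baseline cells and by 40.7% in regression. Its means were 1.30 ± 2.02 and 1.86 ± 2.54, and its median was 0.00 in both groups, with highest cells at 7.26 and 7.63. Across stretches it averaged 2.08, 1.30 and 1.93 in regression and 1.55 and 0.99 in baseline. Dock2, an exchange factor that activates Rac in leukocytes, was at 0.00, 1.65 and 8.60 in baseline and 0.00, 2.86 and 8.91 in regression. Its means were 2.40 ± 2.45 and 2.93 ± 2.72, with stretch means of 3.29, 2.52 and 2.93 in regression and 2.66 and 2.08 in baseline. For both genes regression cells 93 to 111 lay below baseline cells 21 to 92, and 5 of 6 pairings were higher. Cdc42, the GTPase of filopodia and polarity, had a difference of -0.65, in 6 of 6, and a log2 ratio of mean RPKM of -0.10.

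In the turnover group, Coro1a, Gsn, Wdr1 and Cfl1 were lower in 6 of 6 pairings and Capg was not. Coro1a (chromosome 7, 126699773 to 126707787) encodes coronin 1A, a leukocyte protein that binds filaments and Arp2/3. It was at 0.00, 7.96 and 11.44 in baseline and 0.00, 5.73 and 11.06 in regression. Its means were 6.75 ± 3.23 and 4.75 ± 3.41, a difference of -2.0, and it was listed in 88.0% and 76.1% of cells. The stretch means were 5.53, 4.75 and 4.55 in regression and 7.40 and 5.94 in baseline. The groups' stretches did not overlap, but the closest were 0.41 apart, and the baseline stretches themselves differed by over 1. Without baseline cells 21 to 92 the difference was -1.19, and the log2 ratio of mean RPKM was -1.27.

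Gsn (chromosome 2, 35256380 to 35307892) encodes gelsolin, which cuts and caps filaments when calcium rises. The gene was listed in 56.8% of baseline cells and 46.9% of regression cells, at means of 3.23 ± 3.26 and 2.16 ± 2.68, a difference of -1.07. Its median was 2.55 in baseline and 0.74 in regression, and its highest cells were at 9.29 and 11.14. By stretch, the means were 1.05, 1.70 and 2.57 in regression and 3.39 and 3.02 in baseline. Regression cells 168 to 244 lay nearest to baseline, and without them the difference was -1.87. It fell short of 1 in size without regression cells 1 to 20 (-0.83) or 93 to 111 (-0.98), without baseline cells 21 to 92 (-0.86), with a pseudocount of 10 (-0.67), or by the log2 ratio of mean RPKM (-0.84). Capg, a capping protein of the same family, was at 0.00, 7.29 and 11.68 in baseline and 0.00, 7.79 and 11.35 in regression. Its means were 5.76 ± 3.87 and 6.45 ± 3.52, a difference of 0.69, with stretch means of 7.94, 5.79 and 6.21 in regression and 5.16 and 6.50 in baseline. The stretches overlapped: without baseline cells 21 to 92 the difference was -0.05, without 112 to 167 it was 1.29, and without regression cells 168 to 244 it was 1.16. Of the RPKM of both genes, Capg held a median of 93.9% in baseline (110 cells) and 99.4% in regression (103 cells).

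Cfl1, the gene of cofilin 1, which severs old filaments, was listed in every cell. It was at 2.74, 9.39 and 11.25 in baseline and 1.96, 9.31 and 12.07 in regression, with means of 9.15 ± 1.44 and 8.75 ± 1.8. Its stretch means were 8.88, 8.79 and 8.71 in regression and 9.26 and 9.00 in baseline, so the separation between groups was small, from 0.12 to 0.55. By bands of genes detected (1000 to under 2000, 2000 to under 3000, 3000 on), the difference of Cfl1 was -0.72, -0.39 and 0.01. It shares 18.3% of its words with other genes. Wdr1, a cofilin partner, had a difference of -0.52, with pairings that ran from -1.81 with cells 1 to 20 to -0.17 with cells 168 to 244. Without the latter the difference was -1.16. In the same bands of genes detected it was 0.51, -1.27 and 0.07, so it was lower only in the middle band.

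The bundling and crosslinking genes held the largest difference of the 44. Lsp1 (chromosome 7, 142460809 to 142494867) encodes leukocyte-specific protein 1, a filament-binding protein of migrating leukocytes. It was at 0.00, 8.92 and 11.77 (lowest, median, highest) in baseline and at 0.00, 7.11 and 11.94 in regression. The means were 8.33 ± 2.55 and 6.04 ± 3.73, a difference of -2.29. It was listed in 96.8% of baseline cells (exact 95% interval 92.0 to 99.1) and 80.5% of regression cells (72.0 to 87.4), and among the cells that listed it the difference was -1.11. Regression cells thus held both more cells at 0 and lower levels in the rest. Stretch means were 7.94, 6.01 and 5.54 in regression and 8.58 and 8.03 in baseline. Regression cells 1 to 20 lay 0.09 below the nearer baseline stretch, and the other regression stretches were 2.02 to 3.04 lower. Without regression cells 168 to 244 the difference was -1.31, and its log2 ratio of mean RPKM was -0.87. None of its words is shared with another gene.

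Actn1 (chromosome 12, 80167547 to 80260371) encodes alpha-actinin 1, which crosslinks filaments at adhesions. The gene was listed in 47.2% of baseline cells (38.2 to 56.3) and 15.9% of regression cells (9.72 to 24.0). Its means were 2.15 ± 2.45 and 0.68 ± 1.72, a difference of -1.47, and the highest cells were at 7.53 and 8.79. Its median was 0.69 in baseline and 0.00 in regression. Across stretches it averaged 0.89, 0.24 and 0.73 in regression and 2.13 and 2.17 in baseline, so the groups stood apart and the baseline stretches were alike. Since most cells lie near 0, the size depends on the pseudocount: the difference was -2.58 with 0.1 and -0.59 with 10 in place of 1. Actn4, the other non-muscle alpha-actinin, had a difference of -0.02. Its sign changed under 8 of 18 alternatives. Among cells with either gene, Actn1 held a median of 57.3% of the RPKM of both in baseline (84 cells) and 0.0% in regression (59 cells), and it exceeded Actn4 in 52.4% and 23.7% of them.

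Lcp1 (chromosome 14, 75131101 to 75230842) encodes L-plastin, the bundling protein of leukocytes. It was at 0.68, 8.68 and 11.35 in baseline and at 0.00, 7.28 and 10.35 in regression, with means of 8.11 ± 1.97 and 6.97 ± 2.00. All but 1 cell in each group listed it. The stretch means were 6.36, 7.98 and 6.89 in regression and 7.93 and 8.34 in baseline. Regression cells 93 to 111 lay level with baseline cells 21 to 92, and the other pairings were lower. The difference of -1.14 was -0.96 without baseline cells 112 to 167 and -0.98 without regression cells 168 to 244, and its log2 ratio of mean RPKM was -0.97. Flna, the gene of filamin A, which links filaments into a gel, had a difference of -0.45, in 5 of 6 pairings.

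Of the adhesion genes, none differed by 1 or more. Vasp, whose protein speeds filament growth at the leading edge, came closest. It was listed in 24.0% of baseline cells and 44.2% of regression cells. Its means were 0.98 ± 1.91 and 1.95 ± 2.58, a difference of 0.96, with a median of 0.00 in both groups and highest cells at 7.36 and 8.92. By stretch, the means were 3.01, 0.75 and 1.95 in regression and 1.29 and 0.61 in baseline. They overlapped, since regression cells 93 to 111 lay below baseline cells 21 to 92. Without either of these stretches the difference was over 1 (1.19 and 1.34). Its log2 ratio of mean RPKM was larger, 1.65. With a pseudocount of 10 the difference was 0.45, the lowest of 18 alternatives, and its pairings ran from -0.54 to 2.40. Talin 1 (Tln1) and zyxin (Zyx), which tie integrins and adhesion sites to actin, had differences of 0.23 and -0.01. Vcl had means of 0.74 and 0.83, with 25.1% of its words shared with transcripts of Ap3m1.

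The membrane linkers moesin and ezrin differed in opposite directions by their means. Msn, the gene of moesin, the linker of the family that leukocytes use most, was at 0.00, 7.30 and 9.94 in baseline and 0.00, 6.49 and 10.02 in regression. Its means were 6.62 ± 2.32 and 5.80 ± 2.58, a difference of -0.82, with stretch means of 6.30, 4.78 and 5.91 in regression and 6.32 and 6.98 in baseline. The stretches did not overlap, but the closest were 0.02 apart, and without baseline cells 112 to 167 the difference was -0.52. Without baseline cells 21 to 92 it was -1.18, and without regression cells 168 to 244 it was -1.03. Ezr, the gene of ezrin, was listed in 43.2% and 48.7% of cells, at means of 2.17 ± 2.76 and 2.83 ± 3.27. Its median was 0.38 in baseline and 0.53 in regression, and its highest cells were at 8.59 and 10.09. Its stretch means were 4.44, 1.40 and 2.74 in regression and 2.02 and 2.34 in baseline, and without regression cells 1 to 20 the difference of 0.66 was 0.32. Ezr exceeded Msn in 8.13% of the 123 baseline cells with either gene and in 24.3% of the 107 such regression cells. Plek, the gene of pleckstrin, a membrane-binding substrate of protein kinase C, had a difference of -0.61, in 5 of 6 pairings.

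Among the contractile genes, Cnn2 (chromosome 10, 79988584 to 79996062) was lowest against baseline. It encodes calponin 2, a filament-binding regulator of myosin found outside muscle, macrophages included. It was at 0.00, 5.19 and 10.45 (lowest, median, highest) in baseline and at 0.00, 0.64 and 9.45 in regression. The means were 4.60 ± 3.34 and 2.51 ± 2.93, a difference of -2.09. The gene was listed in 76.8% of baseline cells (68.4 to 83.9) and 47.8% of regression cells (38.3 to 57.4). Stretch means were 2.31, 2.98 and 2.45 in regression and 5.17 and 3.89 in baseline. They did not overlap and were at least 0.91 apart, though the baseline stretches also differed by over 1. Without baseline cells 21 to 92 the difference was -1.38, and the log2 ratio of mean RPKM was -1.82.

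Tpm4, a tropomyosin that coats filaments, was at 0.00, 5.83 and 10.17 in baseline and 0.00, 5.47 and 10.34 in regression. Its means were 5.35 ± 3.09 and 4.37 ± 3.49, a difference of -0.97. It was listed in 84.0% and 66.4% of cells, and among those that listed it the difference was 0.21, so the groups differed in the share of cells at 0. Across stretches it averaged 5.74, 3.11 and 4.31 in regression and 5.42 and 5.26 in baseline, and regression cells 1 to 20 were above both baseline stretches. Without them the difference was -1.27, and without baseline cells 112 to 167 it was -1.05. With a pseudocount of 10 it was -0.50, and the log2 ratio of mean RPKM was -0.40. By bands of genes detected, the difference of Tpm4 was -1.65 (1000 to under 2000), -1.03 (2000 to under 3000) and 0.10 (3000 on). It shares 15.7% of its words with other genes, and Tpm3, with a difference of -0.29, shares 23.2%.

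Myl6, an essential light chain of non-muscle myosin, was at 0.00, 9.41 and 11.89 in baseline and 0.00, 9.56 and 12.43 in regression, with means of 8.70 ± 2.59 and 8.71 ± 2.66. The equal means hid unequal stretches: 10.18, 6.97 and 8.74 in regression and 8.87 and 8.50 in baseline. The sign of its difference changed under 10 of 18 alternatives, the rescaling of cells among them, with values from -0.31 to 0.34. Myh9, the heavy chain of non-muscle myosin IIA, was listed in every cell and had the narrowest spread of this group. Its means were 7.83 ± 0.77 and 7.31 ± 1.17, with stretch means of 5.85, 7.60 and 7.63 in regression and 7.63 and 8.08 in baseline. Regression cells 1 to 20 lay well below the others: the difference of -0.52 was -0.21 without them, and -1.15 without regression cells 168 to 244. Myl12a, a regulatory light chain, had a difference of -0.47, in 4 of 6 pairings.

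Vim (chromosome 2, 13573927 to 13582826), the gene of vimentin, the main intermediate filament protein of leukocytes and mesenchymal cells, was higher in regression. It was at 0.00, 8.30 and 11.39 in baseline and at 0.00, 9.06 and 12.63 in regression. The means were 7.51 ± 2.71 and 8.69 ± 2.19, a difference of 1.18. The gene was listed in 96.0% and 97.3% of cells, so the difference lay in its level, which was 1.11 higher among listing cells. The stretch means were 8.99, 7.70 and 8.85 in regression and 7.52 and 7.51 in baseline. Regression cells 93 to 111 lay only 0.18 above baseline, and without regression cells 168 to 244 the difference was 0.87. Its log2 ratio of mean RPKM was 0.66.

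**Figure D5:**
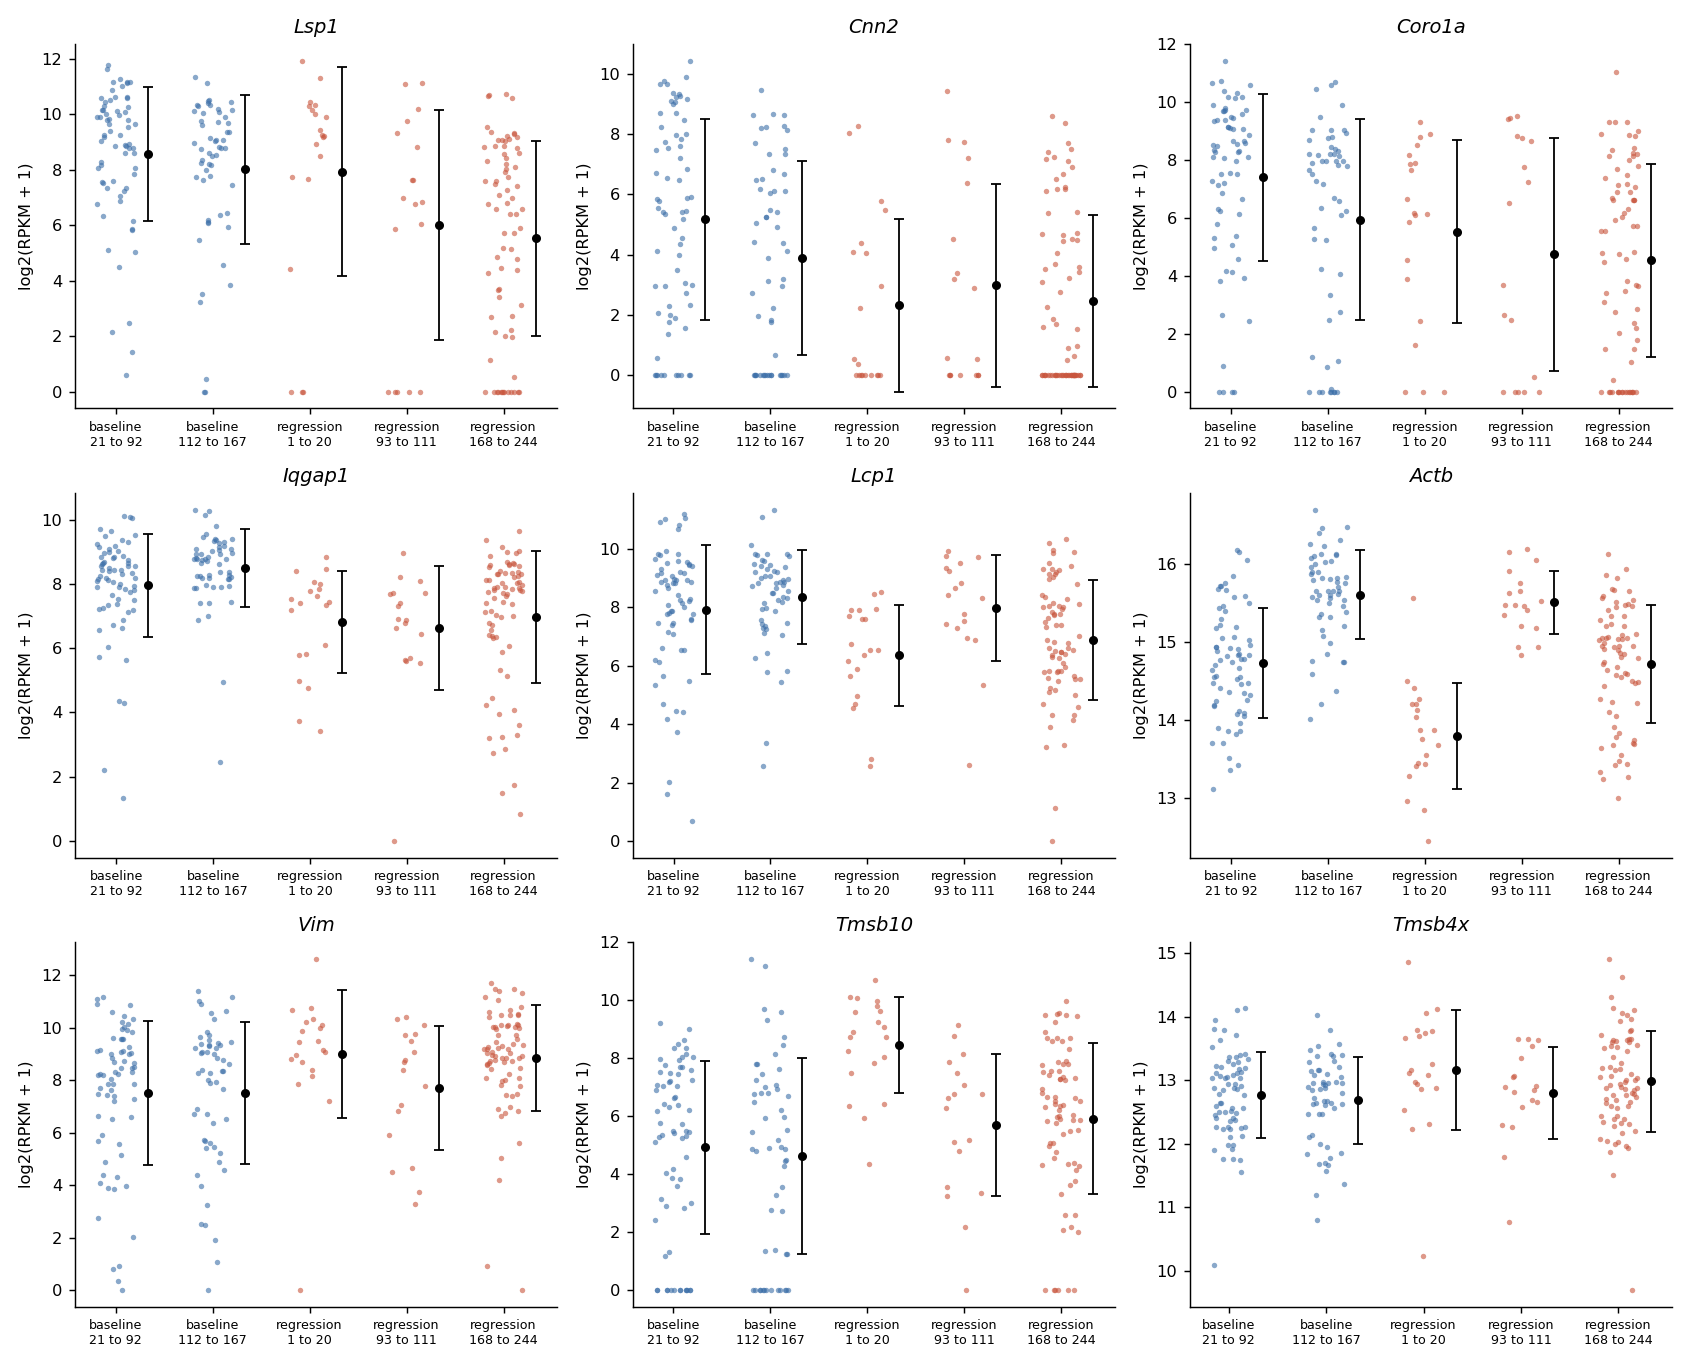
Level as log2(RPKM + 1) of 9 members in each cell, by group and stretch of sample numbers; points are cells, black points and bars the mean ± SD over cells, and the vertical axes differ between panels and do not all start at 0. Lsp1, Cnn2, Coro1a and Iqgap1 have lower and Vim, Tmsb10 and Tmsb4x higher means in each regression stretch, by as little as 0.09 for Lsp1 and 0.03 for Tmsb4x, while the stretches of Lcp1 and Actb overlap.

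Several actin genes are known targets of serum response factor, which binds the CArG box, a 10-base motif. The upstream sequences of the members were therefore searched for it on both strands, which read alike for this motif. RefSeq promoters (GRCm38.p6) were held for 40 of the 44 genes. Actb, Rac1, Rac2 and Lsp1 had no promoter entry and were not searched. In the 250 bases before the start site, 5 of the 40 held a box (12.5%), against 439 of 27025 genes (1.62%). The 5 are shown because they include Cnn2, with 1 of the largest differences, beside members with small ones. Each is given 5′ to 3′ on the strand of the gene with the box in capitals, for Cnn2 at chr10:79988534-79988563 (plus strand), Actg1 at chr11:120348566-120348595 (minus), Myl6 at chr10:128493040-128493069 (minus), Vcl at chr14:20929161-20929190 (plus) and Arpc4 at chr6:113377863-113377882 (plus).
Cnn2: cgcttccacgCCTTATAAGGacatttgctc
Actg1: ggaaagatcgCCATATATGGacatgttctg
Myl6: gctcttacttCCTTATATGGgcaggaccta
Vcl: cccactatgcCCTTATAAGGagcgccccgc
Arpc4: CCTAATTTGGtgcccaacct
Cnn2 and Vcl carry the same box letters, and the boxes of Myl6, Cnn2 and Actg1 end 41, 47 and 81 bases before the start site, those of Vcl and Arpc4 218 and 241. The Myl6 and Arpc4 windows overlap annotated exons. The 5 genes did not share a direction: their differences were -2.09 (Cnn2), 0.25 (Actg1), 0.01 (Myl6), 0.08 (Vcl) and 0.16 (Arpc4). A match is a description of these letters and not evidence of binding.

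A further list of 101 actin-related genes outside the 44 was described the same way. Of the 99 in the table, 70 passed the 25% filter, and 23 had a higher and 47 a lower mean in regression (46.7% and 53.3% of all genes). Of the 70, 3 were higher by 1 or more and 3 lower, where all genes gave 5.60% and 7.37%, and each of these 6 kept its direction in 6 of 6 pairings. The higher ones were Anxa2 (annexin A2, 1.36), Marcksl1 (a membrane-bound actin crosslinker, 1.25) and Cotl1 (coactosin-like 1, 1.22), followed by the GTPase gene Rap1b (0.82). The lower ones were Anxa5 (annexin A5, -1.90), Lpxn (leupaxin, an adhesion adaptor, -1.09) and Ptk2b (the kinase PYK2, -1.08), followed by Ilk (integrin-linked kinase, -0.93). Of the 70 genes, 9 were higher and 13 lower in 6 of 6 pairings, close to the shares of all genes (12.4% and 18.3%). Their median difference was -0.21, and it was -0.05 without baseline cells 21 to 92, -0.09 without regression cells 93 to 111 and -0.08 without 168 to 244.

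Markers of monocytes moved with the groups. At least 3 of 6 classical monocyte markers were listed in 21 of 125 baseline cells (16.8%) and 31 of 113 regression cells (27.4%). For 6 nonclassical markers it was 23 baseline cells (18.4%) and 3 regression cells (2.65%), and all 6 had lower means in regression. Of the 6 classical markers, 4 had higher and 2 had lower means in regression. The summed level of the nonclassical list ran from 0.00 through a median of 5.16 to 37.38 in baseline and from 0.00 through 1.30 to 18.77 in regression. Without the 66 cells that met either rule, the module score was lower by 0.41, and 1 member was higher and 11 lower by 1 or more, where all genes gave 4.60% and 10.1%. Vim, at 0.96, fell short of 1 there, and Cdc42, Msn and Myl12a were added to the lower ones. At least 3 neutrophil markers were listed in 2 baseline and 7 regression cells, with Ly6g, Camp and Ngp at 0 in all cells. Without the 13 cells that listed 3 markers of a type other than macrophage or monocyte, 2 members were higher and 9 lower (5.41% and 7.32% of all genes). Leaving out the 7 regression cells with Apoe in the baseline range gave 2 higher and 7 lower (5.37% and 6.95% of all genes).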

How the data were processed

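Capture used the Fluidigm C1, cDNA synthesis SMARTer and library preparation Nextera XT, per the labels' protocols, whose text names islet cells where the other labels name aortic arch macrophages. The authors deposited 1 table of RPKM values, and the submitters' processing notes name CASAVA 1.8.2, FastQC and the mm10 build. The sources used here do not give the aligner, annotation or RPKM program. Without molecular identifiers, each value includes amplification noise.

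Members and lists were chosen with earlier results of these data known. Libraries correlating above 0.9 were averaged, cells under 1000 genes at RPKM of 1 or more left out, and means of log2(RPKM + 1) compared with Python 3.11.15, pandas 2.3.3 and numpy 2.4.6 by code tested on simulated data. Depth was estimated from the value of 1 read in low genes and kept where estimates from separate gene sets came within 10%. Share intervals are exact (Clopper-Pearson, 95%; scipy 1.17.1). Positions and shared 50-base words come from GENCODE vM21, promoters from RefSeq.

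Values by stretch are given for the 9 highest and 9 lowest differences, the 6 highest levels and the largest difference of each role. Of the other actin genes, only the differences of the 4 highest and 4 lowest are given. Values for Myh9 and the 7 pairs of related genes were chosen after the data were seen, as were the alternatives without marker-bearing cells, without regression cells in the baseline range of Apoe and without members that share over 10% of their words. The level of 1 member and the mean of its role group are not reported here.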

Additional observations from a re-analysis of the deposited data

How the results depend on the processing

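The module score difference and the medians of the members and of the other actin genes kept their sign in the alternatives run. The score difference of -0.30 ran from -0.42 (cells rescaled to a sum of 1000000) to -0.22 (pseudocount 10). The 2 higher and 8 lower members became 1 and 5 with a pseudocount of 10 (2.20% and 2.46% of all genes), 1 and 7 with the mean of stretch means (6.11% and 8.16%), and 1 and 11 without the cells with 3 monocyte markers (4.60% and 10.1%). By the log2 ratio of mean RPKM they became 3 and 3 (11.2% and 10.3%), and the excess of lower members was gone. In the other alternatives the counts were 2 or 3 higher and 7 to 10 lower. Beside them, the shares of all genes ran from 0.92% and 1.21% (no filter on the share of cells listing a gene) to 11.3% and 15.6% (pseudocount 0.1). Without the members that share over 10% of their words, the score difference was -0.37. Of the 44 members, 17 changed sign under 1 or more of 18 alternatives, the largest of them Capg (0.69). Zeros in shallow libraries limit every gene listed in few cells. No paired analysis was possible because the sources used here name no animal or capture run by which cells of both groups could be paired.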
